A study of Mus musculus with 9 samples.

Results

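Macrophages grown from mouse bone marrow were compared after 48 h on a tantalum-free metallic glass and on cp titanium, across all genes that passed a single expression filter. The glass is Zr61Cu25Al14, an alloy of zirconium, copper and aluminium without a crystal lattice, written here as Ta0. The titanium is written as cpTi. A gene was a member of the comparison when it reached 1 FPKM (a read count divided by the length of the gene in kilobases and by a library scale) in at least 3 of the 9 libraries of the series, which 10858 of the 54532 genes in the deposited table did. Of these, 9571 were protein coding. Both groups were wild-type primary cells, each with 3 libraries of polyA RNA and no added agent named in the labels, and 3 further libraries came from the glass Zr58Cu25Al14Ta3 (Ta3). The tissue field of the labels reads xenograft, which was left aside because its sense here is unclear. No library came from any other surface, so a lower level on Ta0 cannot be told apart from a higher level on cpTi. The glass columns of the deposited table are headed only Zr or Ta, and Zr was read as the glass without tantalum and Ta as the glass with it, from the alloy formulas in the labels. Were that reading wrong, the values of Ta0 and Ta3 would change places. Whether the 3 libraries of a material were made from different mice or dishes is not said in the labels, so the p-values speak of the scatter among the libraries at hand, which could be technical in part or in whole.

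Macrophages meet microbes, debris and implant surfaces through pattern receptors such as the Toll-like receptors. Signalling from these receptors frees NF-kB, a transcription factor held in the cytoplasm by inhibitor proteins, and NF-kB then turns on cytokine and chemokine genes together with the genes of its own inhibitors. A later wave runs through type I interferon, whose target genes carry the interferon-stimulated response element (ISRE) near their start. Around implants, such mediators are known to draw in neutrophils and to act on bone-forming and bone-resorbing cells.

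Promoter stretches of 6 genes that were lower on Ta0 are shown because they hold the NF-kB or the ISRE motif close to the start of a gene from each arm of that response, namely a pair of chemokines, a receptor, an NF-kB inhibitor and 2 interferon effectors. Each is written 5′ to 3′ on the gene's strand, from RefSeq promoters on GRCm38, with motif matches in capitals. The NF-kB consensus was searched for Cxcl2, Cxcl3, Tlr2 and Nfkbie, and the ISRE as GAAA, any 2 bases and GAAA, or its reverse complement, for Rsad2 and Gbp7. The stretches lie at chr5:90903719-90903868 (Cxcl2, plus strand), chr5:90785951-90786100 (Cxcl3, plus strand), chr3:83841768-83841858 (Tlr2, minus strand), chr17:45555550-45555699 (Nfkbie, plus strand), chr12:26456453-26456602 (Rsad2, minus strand) and chr3:142530186-142530329 (Gbp7, plus strand).
Cxcl2: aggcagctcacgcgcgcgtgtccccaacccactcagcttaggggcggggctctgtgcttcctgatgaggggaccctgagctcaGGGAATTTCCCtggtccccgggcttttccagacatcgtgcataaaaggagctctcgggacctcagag
Cxcl3: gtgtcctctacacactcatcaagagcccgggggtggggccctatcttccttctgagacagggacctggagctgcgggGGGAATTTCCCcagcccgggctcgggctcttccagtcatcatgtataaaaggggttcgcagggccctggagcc
Tlr2: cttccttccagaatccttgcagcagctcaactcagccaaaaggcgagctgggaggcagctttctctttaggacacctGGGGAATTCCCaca
Nfkbie: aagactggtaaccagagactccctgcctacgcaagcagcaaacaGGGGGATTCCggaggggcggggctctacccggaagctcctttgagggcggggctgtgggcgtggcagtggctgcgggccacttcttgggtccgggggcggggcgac
Rsad2: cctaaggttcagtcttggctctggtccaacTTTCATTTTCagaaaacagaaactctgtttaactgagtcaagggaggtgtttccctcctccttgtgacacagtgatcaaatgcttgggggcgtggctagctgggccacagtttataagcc
Gbp7: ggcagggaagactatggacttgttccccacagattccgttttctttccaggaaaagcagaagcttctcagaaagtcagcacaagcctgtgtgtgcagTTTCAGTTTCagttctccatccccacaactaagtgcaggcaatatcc

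The match of the chemokines Cxcl2 and Cxcl3 was the same run of bases, GGGAATTTCCC, where 2 overlapping matches of the consensus on opposite strands start 97 and 96 bases before the start of Cxcl2 and 73 and 72 before that of Cxcl3. In Tlr2 the printed match begins 173 bases before the start, and another lies closer to the start outside the stretch. The match begins 106 bases before the start in Nfkbie, 120 in Rsad2 and 53 in Gbp7. RefSeq windows of 300 bases, 250 of them upstream, were at hand for 35 of the 46 genes called between Ta0 and cpTi and for 7252 of the 10858 genes tested. That is under 80% of either, so the shares below describe the windows at hand and a comparison of them is void. The NF-kB consensus was found in 8 of the 32 windows of genes lower on Ta0 (25%) and in 9.83% of all windows, the other genes with it being H2-M2, Smpdl3b, Zc3h12c and Ifit2. The ISRE was found in 3 of 32 (9.38%), with Tgfbi as the third, and in 3.27% of all. TGANTCA, the AP-1 motif, stood in 4 of 32 (12.5%: Met, Rsad2, Nfkbie and Ms4a14) and in 4.58% of all, and TGACNNNGC, the antioxidant response element, in 5 of 32 (15.6%) and 15.4% of all. TGACGTCA, the cyclic AMP response element, was in none of the 32 and in 3.50% of all. None of the 3 windows of genes higher on Ta0 held any of these motifs. All searches covered both strands, and an AP-1 match can lie within a match of the antioxidant response element. A match is a description of letters, not of a bound site.

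The number of rebuilt reads was alike in both groups, but 1 library of each group stood apart in other ways, in opposite directions. Whole reads rebuilt from the FPKM came to between 15527155 and 18449951 per library over these 6. The scale that divides the reads was 9078170 in Ta0 replicate 1 against 16342347 to 21911078 in the other 5, and its FPKM total was 1251570 against 312541 to 565811. Ta0 replicate 1 had 15678 genes above 0, against 18156 to 20635 in the other 5, and its ribosomal protein genes took 18.0% of reads, against 7.01% and 10.1% in the other Ta0 libraries and 5.11%, 7.29% and 3.54% in cpTi replicates 1, 2 and 3. The group means of that share were 5.31 ± 1.88% on cpTi and 11.7 ± 5.66% on Ta0 (SD, n = 3, exact two-sided permutation p = 0.2, where 0.1 is the smallest possible). Mitochondrial transcripts took 1.73 ± 0.351% and 1.25 ± 0.163% (exact permutation p = 0.2, n = 3). Opposite to Ta0 replicate 1 stood cpTi replicate 3, with the lowest FPKM total, the most genes above 0 and the lowest ribosomal share of these 6. A library's slope on gene length was 0.205 in cpTi replicate 3, -0.234 in Ta0 replicate 1 and between -0.0756 and 0.0614 in the rest. All 7 macrophage markers were present, and their summed FPKM ran from 16776 to 29336 on cpTi and from 23305 to 40236 on Ta0. Lyz2 made up most of that sum, with 22116 of 23253 FPKM in cpTi replicate 1. Of the 7 markers 5 were lower on Ta0 and 2 higher, with a median log2 fold change of -0.37. None was called, and 2 had every Ta0 library below every cpTi library (28.6%, against 10.2% of all genes). Neutrophil markers, mostly S100a8, summed to 130, 292 and 72.4 FPKM on cpTi and 442, 112 and 198 on Ta0, with Ly6g at 0 in all 6. The summed level of erythroid markers reached 0.30 FPKM at most on cpTi and ran from 0.540 to 14.0 on Ta0. Monocyte markers summed to 46.4 to 99.1 FPKM on cpTi and 32.2 to 45.2 on Ta0, and B cell markers to 2.43 to 3.94 and 5.53 to 10.7. T and NK cell markers stayed at a sum of 2.61 FPKM or less and endothelial markers at 2.51 or less in each library. Fibroblast (27.7 to 50.0 and 29.6 to 30.5), mast cell (6.34 to 8.36 and 7.22 to 11.8), dendritic cell (4.38 to 4.94 and 2.58 to 4.16) and osteoclast markers (409 to 1469 and 647 to 853, with Calcr and Oscar at 0) are given as summed FPKM on cpTi and on Ta0. The part of these other cells and of library composition in the results was not tested beyond the left-out libraries given below.

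Most genes that differed were lower on Ta0, among them the chemokine genes Cxcl2 and Cxcl3 and the cytokine genes Il1b and Tnf. The test was limma's moderated test on log2(FPKM + 1), where the change of a gene with few reads comes out too small, and a gene was called at a Benjamini-Hochberg adjusted p under 0.05 over all 10858. It called 46 genes (0.424%), of which 41 fell (0.378%) and 5 rose (0.046%). Among the 41 falls, Nos2, Slc39a4, Tarm1, Gm22121 and Ms4a14 passed the filter only through their cpTi libraries and so had to be lower. At an unadjusted p under 0.05 there were 403 lower and 194 higher, and the median log2 fold change of all genes was -0.0012, with 5444 (50.1%) below 0. All 41 falls were at least 2-fold in mean FPKM, with a median of 3.66-fold, and the 5 rises ran from 1.95-fold to 4.01-fold. None of the 46 had a Ta0 library between the lowest and highest cpTi values, which held for 10.2% of all genes on the lower side and 6.31% on the higher side. The genes that fell had a median of 12.1 FPKM on cpTi where all tested genes had 5.87, and 26 of the 41 had a mean of at least 10. Calling falls on this scale favours genes that are high on cpTi, so that difference is in part built in. Fewer cells of a responding kind and less RNA per cell cannot be told apart in such bulk samples.

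**Figure D1:**
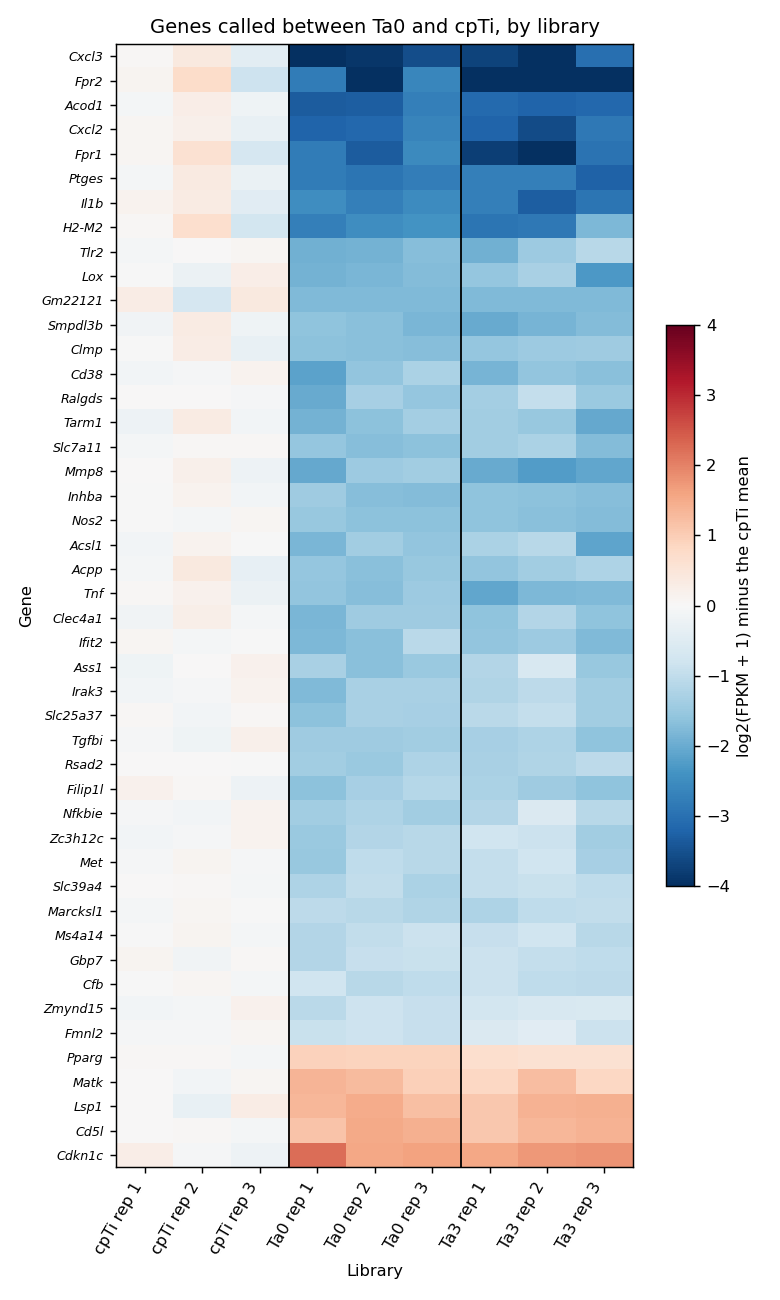
The 46 called genes (rows) in each of the 9 libraries (columns), coloured by log2(FPKM + 1) minus the gene's cpTi mean, blue for lower and red for higher, with the colour scale ending at 4 in either direction. The 3 Ta0 libraries sit on one side of the cpTi libraries in every row, 41 rows below and 5 above, and Cxcl3, Fpr2 and Acod1 head the falls.

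**Figure D2:**
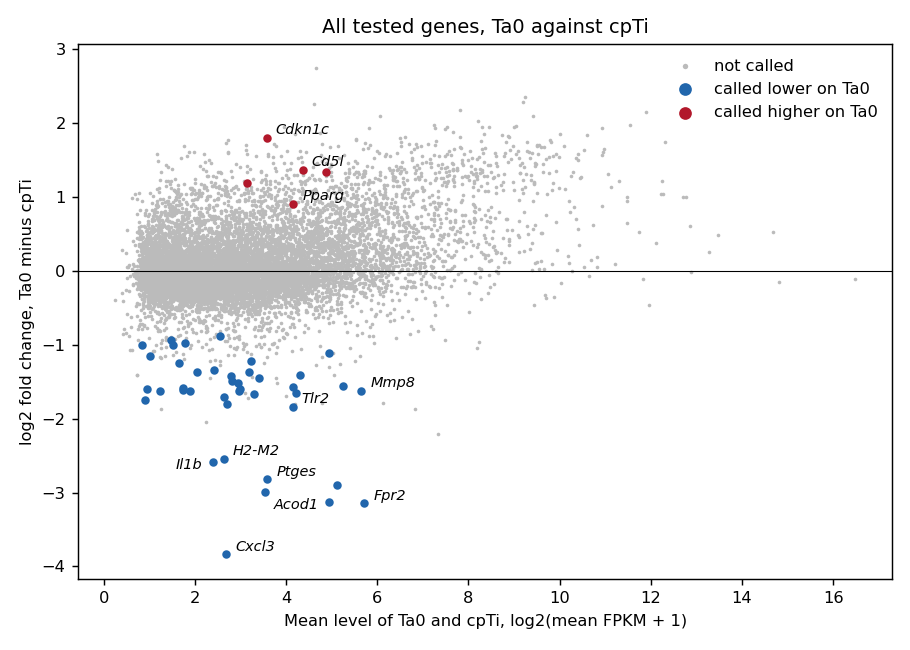
Mean level of each of the 10858 tested genes over Ta0 and cpTi (log2 scale, x axis) against the log2 fold change of Ta0 minus cpTi (y axis), with called falls in blue and called rises in red. Size alone does not set the called falls apart, as uncalled genes such as Clec4e (-2.21) and Gbp2 (-1.70) lie lower than called ones such as Fmnl2 (-0.89).

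How far these calls rest on single libraries was measured by leaving out each of the 9 in turn. The counts were 9, 12 and 13 genes without cpTi replicates 1, 2 and 3 and 10, 7 and 10 without Ta0 replicates 1, 2 and 3, with every call a fall. Without Ta3 replicates 1, 2 and 3, which bear only on the shared estimate of spread, they were 13, 34 and 84. Acod1, Ptges, Cxcl3, Cxcl2, Nos2, Il1b and Inhba passed in all 9 of these fits, and Fpr2 in none. The direction of Nos2 was set beforehand, as it reached the filter only through its cpTi libraries. Without both Ta0 replicate 1 and Ta3 replicate 3, the 2 libraries with the fewest genes above 0, 18 fell and 2 rose. A fit that also took in each library's slope on gene length, written below as the length-adjusted fit, gave 246 calls: 190 fell and 56 rose, all 46 among them. With every library scaled to the same FPKM sum, which moved the median over all genes to -0.47, 11 fell and none rose. Only 9 of those 11 were among the 46, so 37 of the 46 lost their call there. All 46 genes kept their sign in each of those fits. For the left-out libraries that was fixed in advance, since none of the 46 had overlapping groups.

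Among secreted signals, the falls were in neutrophil-attracting CXC chemokines and early cytokines. In the values that follow, libraries are always in the order of replicates 1, 2 and 3. Cxcl3, a ligand of the neutrophil receptor CXCR2, stood at 23.5, 30.2 and 16.9 FPKM on cpTi and 0.409, 0.617 and 1.05 on Ta0, a 34.0-fold lower mean (log2 fold change -3.84, SE 0.30, adjusted p = 0.00252). Its neighbour on chromosome 5 Cxcl2, which acts on the same receptor, stood at 33.3, 36.2 and 25.3 FPKM on cpTi and 2.5, 2.70 and 4.14 on Ta0 (log2 fold change -2.99, SE 0.24, adjusted p = 0.00252). For both, the highest Ta0 library and the lowest cpTi library were each replicate 3, and the groups stood far apart. The CXC list had 9 tested members, of which these 2 fell (22.2%, against 0.378% of all genes), 8 lay below 0 and the median was -1.01. Its most abundant members were Pf4, Cxcl16 and Cxcl2, with log2 fold changes of -0.0017, -0.97 and -2.99. Pf4 stood at 1095, 1756 and 674 FPKM on cpTi and 2230.4, 537 and 1077 on Ta0, so its groups overlapped widely. The interferon-induced Cxcl10 did not reach the filter, at 2.40, 2.32 and 0.993 FPKM on cpTi and 0.587, 0.213 and 0.326 on Ta0, and was not tested.

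Of 10 CC chemokines, which draw monocytes and other leukocytes, limma called none, with 1 lower and 0 higher at an unadjusted p under 0.05 and a median of 0.24. The most abundant were Ccl6, Ccl3 and Ccl2, with log2 fold changes of 0.34, 0.00019 and 0.24. Ccl2, the main monocyte attractant, stood at 114, 146 and 57.3 FPKM on cpTi and 196, 67.9 and 119 on Ta0, with the highest and the lowest values both within reach of the other group. The median of this list was -0.37 with a common FPKM total and -0.60 in the length-adjusted fit, where Ccl3 was called lower (log2 fold change -0.65, adjusted p = 0.0332), so no direction is given for the family.

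Cytokine genes followed the CXC chemokines at their inflammatory end. Il1b, which encodes the fever-inducing interleukin 1 beta, stood at 13, 15.0 and 8.30 FPKM on cpTi and 1.27, 0.912 and 1.22 on Ta0 (log2 fold change -2.59, SE 0.24, adjusted p = 0.00439). Tnf, the tumour necrosis factor gene, stood at 30.6, 33.6 and 24.8 FPKM on cpTi and 9.27, 8.31 and 10.2 on Ta0 (log2 fold change -1.57, SE 0.18, adjusted p = 0.0132). The groups of neither gene overlapped, but the cpTi libraries scattered. Their SD was 3.45 FPKM around a mean of 12.1 for Il1b and 4.48 around 29.6 for Tnf (n = 3). Inhba, which encodes the subunit of activin A, stood at 4.71, 5.46 and 4.36 FPKM on cpTi and 1.19, 0.788 and 0.747 on Ta0, a 5.33-fold lower mean (log2 fold change -1.62, SE 0.15, adjusted p = 0.00439). It lies on chromosome 13, 16011851 to 16031621, plus strand, and its 69, 84 and 78 reads on Ta0 stand against 539, 575 and 610 on cpTi. Of 15 tested cytokines Il1b and Tnf fell (13.3%, against 0.378% of all genes), 12 lay below 0 and the median was -0.41. At the highest levels were Tnfsf12, Il1rn and Il1a, with log2 fold changes of 0.23, -0.13 and -1.02, so Il1rn, the natural antagonist of interleukin 1, had overlapping groups at 35.0, 46.2 and 31.5 FPKM on cpTi and 31.7, 35.0 and 34.6 on Ta0. Csf3, which encodes the granulocyte growth factor, lay just past the threshold at 3.28, 2.49 and 1.87 FPKM on cpTi and 0.702, 0.509 and 0.476 on Ta0 (log2 fold change -1.17, SE 0.20, adjusted p = 0.0603). Il6 had 0.551, 0.899 and 0.188 FPKM on cpTi and 0, 0.148 and 0.101 on Ta0, and Il10 0.298, 0.324 and 0.0348 on cpTi and 0, 0.549 and 0.28 on Ta0, both too low to be tested. Tnf was no longer called when cpTi replicate 1, cpTi replicate 2 or any 1 of the Ta0 libraries was left out (adjusted p up to 0.116).

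The receptors that sense microbial products included Fpr1 and Fpr2, the 2 falls with the highest mean level on cpTi. Tlr2, the receptor for bacterial lipoproteins, stood at 30.7, 32.5 and 34.1 FPKM on cpTi and 7.78, 7.96 and 9.36 on Ta0 (log2 fold change -1.84, SE 0.22, adjusted p = 0.0160), with a spread of 1.71 FPKM (SD) around 32.4 on cpTi and 0.863 around 8.37 on Ta0 (n = 3). Fpr1, a receptor for formylated bacterial peptides, stood at 93.7, 139 and 55.4 FPKM on cpTi and 12.1, 7.97 and 14.6 on Ta0 (log2 fold change -2.89, SE 0.46, adjusted p = 0.0461). Its relative and neighbour Fpr2 stood at 152, 239 and 79.1 FPKM on cpTi and 19.6, 7.77 and 22.3 on Ta0 (log2 fold change -3.15, SE 0.50, adjusted p = 0.0470). In both, cpTi replicate 2 was highest and cpTi replicate 3 lowest, and the spread on cpTi was 41.7 around a mean of 95.9 FPKM for Fpr1 and 79.9 around 157 for Fpr2 (SD, n = 3). The 2 genes are alike in sequence, so some reads may have been given to the wrong one. Clec4a1, a C-type lectin receptor of myeloid cells, stood at 57.9, 75.1 and 59.9 FPKM on cpTi and 17.3, 23.2 and 23.4 on Ta0 (log2 fold change -1.55, SE 0.22, adjusted p = 0.0288). Tarm1, an activating receptor of myeloid cells, fell from a mean of 3.15 ± 0.840 FPKM on cpTi to one of 0.339 ± 0.243 on Ta0 (log2 fold change -1.63, SE 0.24, adjusted p = 0.0328), and rests on 2, 11 and 20 reads on Ta0. Of the 24 pattern recognition and formyl peptide receptors tested, 3 fell (12.5%, against 0.378% of all genes), 19 lay below 0 and the median was -0.43. Every Ta0 library was below every cpTi library in 11 (45.8%, against 10.2% of all genes). The most abundant members were Clec4d, Trem2 and Clec7a, with log2 fold changes of 0.099, 1.19 and 0.21. Clec4d, a lectin that binds fungal and mycobacterial glycolipids, was lower in the length-adjusted fit (log2 fold change -0.98, adjusted p = 0.0245), against the sign of its value here. Clec4e, a partner lectin chosen after its values were seen, stood at 343, 528 and 195 FPKM on cpTi and 68.4, 54.9 and 92.6 on Ta0 without passing (log2 fold change -2.21, SE 0.46, adjusted p = 0.138). Without any 1 cpTi or Ta0 library these receptor calls were lost, and without Ta3 replicate 1 all but that of Tlr2, with an adjusted p of up to 0.111 for Tlr2, 0.252 for Fpr1, 0.257 for Fpr2, 0.168 for Clec4a1 and 0.176 for Tarm1.

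Receptors for cytokines and chemokines did not pass as a group of 24, with 0 called by limma, 5 lower and 0 higher at an unadjusted p under 0.05 and a median of -0.21. Highest in FPKM were Tnfrsf1b, Cxcr4 and Ccr1, with log2 fold changes of -0.85, -0.54 and 0.016. Csf1r, the receptor of the macrophage growth factor, stood at 105, 99.8 and 145 FPKM on cpTi and 55.0, 71.3 and 57.0 on Ta0 without overlap (log2 fold change -0.91, SE 0.32, adjusted p = 0.675). A growth factor receptor outside that list did fall: Met, the receptor of hepatocyte growth factor, went from a mean of 13.3 ± 1.06 FPKM on cpTi to one of 5.20 ± 1.06 on Ta0 (log2 fold change -1.22, SE 0.19, adjusted p = 0.0461). H2-M2, an MHC class I-like gene, stood lower still relative to cpTi, from a mean of 14.5 ± 7.11 FPKM on cpTi to one of 1.47 ± 0.307 on Ta0 (log2 fold change -2.54, SE 0.40, adjusted p = 0.0461). Both lost their call without any 1 cpTi or Ta0 library or without Ta3 replicate 1 or 2 (adjusted p up to 0.252).

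Genes that dampen Toll-like receptor or NF-kB signalling also fell, among them Irak3, Nfkbie and Smpdl3b. Irak3, a kinase-like protein that blocks Toll-like receptor signalling, stood at 15.2, 15.9 and 18.3 FPKM on cpTi and 4.11, 6.13 and 6.16 on Ta0 (log2 fold change -1.45, SE 0.19, adjusted p = 0.0206). Nfkbie, which encodes the NF-kB inhibitor I-kappa-B epsilon and whose promoter is shown above, stood at 7.35, 6.99 and 8.36 FPKM on cpTi and 2.24, 2.62 and 2.27 on Ta0 (log2 fold change -1.34, SE 0.18, adjusted p = 0.0272). Zc3h12c, of the regnase family of RNA-binding proteins, went from a mean of 3.86 ± 0.406 FPKM on cpTi to one of 1.05 ± 0.275 on Ta0 (log2 fold change -1.25, SE 0.20, adjusted p = 0.0461). Smpdl3b, a membrane enzyme known in mouse macrophages to dampen Toll-like receptor signalling, stood at 9.18, 12.9 and 8.90 FPKM on cpTi and 2.64, 2.48 and 2.17 on Ta0 (log2 fold change -1.71, SE 0.17, adjusted p = 0.00622). Of 25 NF-kB subunits and feedback inhibitors Irak3 and Nfkbie fell (8%, against 0.378% of all genes), 23 lay below 0 and the median was -0.56. All Ta0 libraries were below all cpTi libraries in 19 (76%, against 10.2% of all genes). In the length-adjusted fit 11 were lower and 1 higher, and none was called with a common FPKM total or without Ta0 replicate 1. Leading in level were Ier3, Tnfaip2 and Nfkbia, with log2 fold changes of -0.72, -0.55 and -1.23. Nfkbia, the best-known inhibitor, stood at 70.3, 83.5 and 52.7 FPKM on cpTi and 32.6, 26.6 and 26.3 on Ta0, again without overlap. Smpdl3b lost its call without Ta0 replicate 2 or 3 (adjusted p up to 0.0593), and Irak3, Nfkbie and Zc3h12c without any 1 cpTi or Ta0 library or Ta3 replicate 1 (up to 0.241).

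In a list of 19 enzymes, named for itaconate, arginine, nitric oxide and eicosanoid metabolism, 5 fell, of which Cd38 lies outside those pathways. Acod1, which makes itaconate, stood at 84.0, 107 and 78.6 FPKM on cpTi and 7.94, 8.12 and 12.5 on Ta0, a 9.42-fold lower mean (log2 fold change -3.12, SE 0.21, adjusted p = 0.00252). Ptges, the inducible synthase of prostaglandin E2 on chromosome 2 (30889471 to 30929863, minus strand), stood at 28.7, 39.7 and 25.4 FPKM on cpTi and 3.59, 3.22 and 3.69 on Ta0, a 8.94-fold lower mean (log2 fold change -2.82, SE 0.21, adjusted p = 0.00252). Nos2, the inducible nitric oxide synthase, stood at 2.31, 2.20 and 2.58 FPKM on cpTi and 0.175, 0.0816 and 0.0693 on Ta0 (log2 fold change -1.6, SE 0.14, adjusted p = 0.00384). Its fold rests on 7, 6 and 5 reads on Ta0 against 183, 160 and 249 on cpTi. Ass1, which helps to rebuild the arginine that Nos2 uses, fell from a mean of 10.8 ± 1.35 FPKM on cpTi to one of 3.22 ± 0.542 on Ta0 (log2 fold change -1.49, SE 0.23, adjusted p = 0.0450). Cd38, an ectoenzyme that breaks down NAD, stood at 29.0, 30.3 and 34.7 FPKM on cpTi and 6.37, 9.85 and 12.5 on Ta0 (log2 fold change -1.65, SE 0.23, adjusted p = 0.0288), with Ta0 replicate 1 the lowest. Those 5 are 26.3% of the 19, where 0.378% of all genes fell. That share counts Cd38, and Nos2 passed the filter only through its cpTi libraries and so had to be lower. In the length-adjusted fit 6 fell, and 3 did with a common FPKM total, with voom or without Ta0 replicate 1. The median of the list was -0.25 and 10 lay below 0, so the falls were not shared by the list. The most abundant members were Arg1, Alox5ap and Acod1, with log2 fold changes of -0.47, 0.054 and -3.12. Arg1, the arginase that competes with Nos2 for arginine, stood at 854, 1107 and 504.2 FPKM on cpTi and 489, 497 and 741 on Ta0, with groups that overlapped. Acod1, Ptges and Nos2 kept their call without any 1 library, with adjusted p of up to 0.0293, 0.0293 and 0.0450, while Cd38 and Ass1 lost theirs without any 1 cpTi or Ta0 library or Ta3 replicate 1 (up to 0.168 and 0.210).

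**Figure D3:**
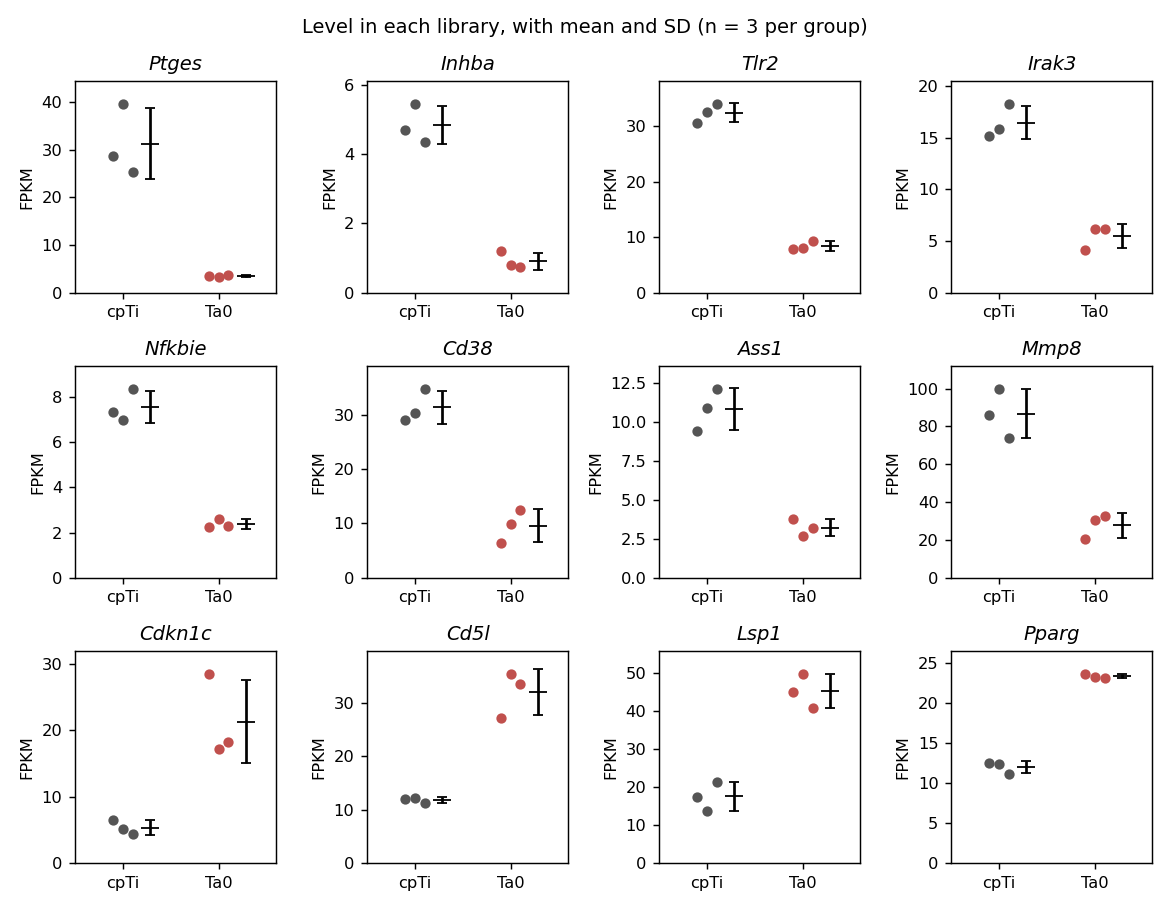
FPKM of 12 called genes in each library, with points for replicates 1, 2 and 3 of cpTi (grey) and Ta0 (red), and the mean and SD (n = 3) beside them, every y axis starting at 0. The first 8 genes fell and the last 4 rose, with no overlap in any panel, and Ta0 replicate 1 stands off from its group for Cdkn1c at 28.5 FPKM.

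Interferon targets lay mostly below 0 on Ta0, and few of them passed. Rsad2, the antiviral enzyme viperin, stood at 13.8, 13.6 and 13.4 FPKM on cpTi and 4.55, 4.21 and 5.22 on Ta0, where the cpTi libraries had an SD of 0.179 FPKM (log2 fold change -1.37, SE 0.14, adjusted p = 0.00622). Ifit2, an antiviral RNA-binding protein, stood at 12.6, 11.3 and 11.7 FPKM on cpTi and 2.72, 3.04 and 5.10 on Ta0 (log2 fold change -1.51, SE 0.20, adjusted p = 0.0247), and Gbp7, a guanylate-binding protein of the interferon response, fell from a mean of 3.02 ± 0.339 FPKM on cpTi to one of 1.01 ± 0.213 on Ta0 (log2 fold change -1.0, SE 0.15, adjusted p = 0.0328). Of 43 interferon effectors, Rsad2 and Ifit2 fell (4.65%, against 0.378% of all genes), 41 lay below 0 and the median was -0.66. Every Ta0 library was below every cpTi library in 30 (69.8%, against 10.2% of all genes). The count of falls moved with the processing, to 18 in the length-adjusted fit and 0 with a common FPKM total or without Ta0 replicate 1. The most abundant members were Bst2, Isg15 and Oas1a, with log2 fold changes of 0.53, -0.17 and -0.18. Of 9 guanylate-binding proteins and immunity-related GTPases only Gbp7 fell (11.1%, against 0.378% of all genes), all 9 lay below 0 and the median was -0.86. Every Ta0 library was below every cpTi library in 8 (88.9%, against 10.2% of all genes). Of the 9, 5 fell in the length-adjusted fit and none with a common FPKM total, with voom or without Ta0 replicate 1. Those with the most FPKM were Gbp2, Irgm1 and Igtp, with log2 fold changes of -1.70, -0.86 and -0.44. Gbp and Ifit genes have close copies that can share reads.

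The transcription factors above those targets did not pass. Of 19 interferon regulatory factors, STATs and SOCS genes limma called none, with 7 lower and 0 higher at an unadjusted p under 0.05, and the median was -0.30, which became 0.01 in the length-adjusted fit. The most abundant were Irf5, Irf7 and Stat6, with log2 fold changes of 0.014, -1.26 and -0.099. Irf7, the amplifier of the interferon response, stood at 54.7, 71.2 and 41.1 FPKM on cpTi and 19.0, 23.5 and 24.1 on Ta0, without overlap (log2 fold change -1.26, SE 0.23, adjusted p = 0.0872). Rsad2 lost its call without cpTi replicate 1 or Ta0 replicate 1 or 2 (adjusted p up to 0.0803), Ifit2 without any 1 cpTi library, Ta0 replicate 1 or 2 or Ta3 replicate 1 (up to 0.168), and Gbp7 without any library but Ta3 replicate 3 (up to 0.252).

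The last 5 genes inside the threshold were Met, Zc3h12c, Fpr2, Acsl1 and Fmnl2, with adjusted p from 0.0461 to 0.0498. The first outside was Usp18, which strips the ubiquitin-like protein ISG15 from its targets, at 9.82, 11.3 and 8.28 FPKM on cpTi and 2.92, 4.06 and 4.76 on Ta0 (log2 fold change -1.14, SE 0.19, adjusted p = 0.0501). Next came the pseudogene Gm6180, the only one of the 10 that stood higher on Ta0, at 5.71, 7.06 and 5.41 FPKM on cpTi and 12.4, 12.0 and 12.9 on Ta0 (log2 fold change 0.94, SE 0.15, adjusted p = 0.0546), then Ifit3 (log2 fold change -1.52, SE 0.25, adjusted p = 0.0557), Gbp2 (log2 fold change -1.70, SE 0.28, adjusted p = 0.0581) and Csf3. All 5 outside had groups without overlap, as had the 5 inside.

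A cystine importer and a mitochondrial iron importer fell. Slc7a11, the cystine transporter that feeds glutathione synthesis, stood at 5.11, 5.67 and 5.64 FPKM on cpTi and 1.23, 0.991 and 1.07 on Ta0 (log2 fold change -1.63, SE 0.15, adjusted p = 0.00477), with 3 values in each group that were nearly the same. The median of the 22 NRF2, cystine and glutathione genes was -0.19, and the most abundant were Txn1, Prdx1 and Gpx1, with log2 fold changes of 1.26, 0.043 and 0.94. Hmox1, which breaks down haem, stood at 290.1, 382 and 273 FPKM on cpTi and 194, 224 and 215 on Ta0, without overlap but short of the threshold (log2 fold change -0.56, SE 0.27, adjusted p = 0.75). Prdx1, a peroxide-removing enzyme, was lower in the length-adjusted fit (log2 fold change -0.93, adjusted p = 0.0334), against the sign here. Slc25a37, the iron importer of mitochondria, stood at 10.7, 9.46 and 10.8 FPKM on cpTi and 2.63, 3.64 and 3.46 on Ta0 (log2 fold change -1.42, SE 0.17, adjusted p = 0.0169), the only fall among 16 iron genes, whose median was -0.26. The most abundant iron genes were Fth1, Ftl1 and Pcbp1, with log2 fold changes of -0.15, 0.60 and -0.026. Slc7a11 lost its call without Ta0 replicate 2 (adjusted p = 0.0514), with a replicate block and with a common FPKM total (0.225), and Slc25a37 without any 1 cpTi or Ta0 library or Ta3 replicate 1 (up to 0.134).

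The glass holds copper, a metal that cells bind with metallothioneins and move with dedicated transporters. None of 21 metallothionein, copper and zinc genes was called by limma, with 2 lower and 0 higher at an unadjusted p under 0.05 and a median of 0.0017. Their most abundant members were Atox1, Mt1 and Slc31a2, with log2 fold changes of 1.2, 0.69 and -0.63. Mt1, a metal-binding metallothionein, stood at 110.1, 159.5 and 96.4 FPKM on cpTi and 412, 117 and 151 on Ta0, and Mt2 at 0.285, 0.309 and 0.310 FPKM on cpTi and 3.00, 0 and 0.728 on Ta0. For both, Ta0 replicate 1, whose ribosomal protein share was the highest, was far above all others and the remaining values overlapped. Slc30a1, the zinc exporter, stood at 6.39, 6.66 and 7.55 FPKM on cpTi and 6.99, 8.42 and 7.21 on Ta0. Outside that list Slc39a4, a zinc importer, stood at 2.07, 2.11 and 1.88 FPKM on cpTi and 0.284, 0.541 and 0.256 on Ta0 (log2 fold change -1.16, SE 0.14, adjusted p = 0.0191), on 8, 28 and 13 reads on Ta0 against 115, 108 and 128 on cpTi, and lost its call without any 1 cpTi or Ta0 library or Ta3 replicate 1 (adjusted p up to 0.168).

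The 5 genes that rose on Ta0 were a cell cycle inhibitor, 2 genes of lipid handling and 2 of leukocyte signalling and actin. Cdkn1c, an inhibitor of cyclin-dependent kinases, stood at 6.51, 5.05 and 4.39 FPKM on cpTi and 28.5, 17.2 and 18.2 on Ta0 (log2 fold change 1.8, SE 0.23, adjusted p = 0.0199). Ta0 replicate 1 was the highest, and the other 2 Ta0 libraries were still well above cpTi. Cd5l, a secreted protein of macrophages that binds lipids and is a target of liver X receptors, stood at 12.0, 12.3 and 11.2 FPKM on cpTi and 27.3, 35.5 and 33.6 on Ta0 (log2 fold change 1.36, SE 0.17, adjusted p = 0.0206). It lies on chromosome 3, 87357881 to 87371073, plus strand. Pparg, the nuclear receptor of fatty acids that shapes lipid uptake in macrophages, stood at 12.4, 12.4 and 11.2 FPKM on cpTi and 23.6, 23.3 and 23.1 on Ta0 (log2 fold change 0.91, SE 0.14, adjusted p = 0.0437), the tightest of the rises, with an SD of 0.268 on Ta0. Its gene spans 115360951 to 115490399 of chromosome 6, plus strand. Lsp1, an actin-binding protein of leukocytes, stood at 17.5, 13.8 and 21.4 FPKM on cpTi and 45.1, 49.8 and 40.8 on Ta0 (log2 fold change 1.33, SE 0.21, adjusted p = 0.0461), and Matk, whose product phosphorylates and holds back Src-type kinases, at 4.92, 4.37 and 5.14 FPKM on cpTi and 13.8, 13.1 and 10.2 on Ta0 (log2 fold change 1.19, SE 0.18, adjusted p = 0.0388). Every Ta0 library lay above every cpTi library for each of the 5. Each of the 5 lost its call without any 1 cpTi or Ta0 library or Ta3 replicate 1, and Pparg and Lsp1 also without Ta3 replicate 2 (adjusted p up to 0.121 for Cdkn1c, 0.168 for Cd5l, 0.241 for Matk, 0.269 for Pparg and 0.274 for Lsp1). With a common FPKM total their log2 fold changes were 1.24, 0.78, 0.64, 0.33 and 0.73 in that order, with adjusted p from 0.625 to 0.688, against a median of all genes of -0.47 there.

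The rises of Cd5l and Pparg were not shared by their list as a whole. Of 23 lipid handling, PPAR and LXR genes those 2 rose (8.70%, where 0.046% of all genes rose), 12 lay below 0 and the median was -0.036. Every Ta0 library lay above every cpTi library in 6 of the 23 (6.31% of all genes) and below in 3 (10.2% of all genes). In the length-adjusted fit 6 lay below 0, with 3 called higher and 1 lower, and with a common FPKM total 17 lay below 0 and 0 were called. At the highest levels were Apoe, Fabp5 and Cd36, with log2 fold changes of 0.94, 0.88 and 0.097. Apoe, the apolipoprotein that carries lipid out of macrophages, stood at 2095, 2014 and 1993 FPKM on cpTi and 5058, 3442 and 3443 on Ta0, without overlap but short of the threshold (log2 fold change 0.94, SE 0.50, adjusted p = 0.75). Abca1, the cholesterol exporter and a liver X receptor target chosen after its values were seen, lay on the other side at 12.5, 10.6 and 21.5 FPKM on cpTi and 3.96, 5.19 and 4.81 on Ta0 (log2 fold change -1.43, SE 0.36, adjusted p = 0.282). Acsl1, which activates long-chain fatty acids and was outside the list, fell from a mean of 12.8 ± 1.17 FPKM on cpTi to one of 3.58 ± 0.673 on Ta0 (log2 fold change -1.6, SE 0.26, adjusted p = 0.0485), a call lost without any 1 cpTi or Ta0 library or Ta3 replicate 1 (adjusted p up to 0.248). Of 17 cholesterol synthesis genes none was called by limma or had an unadjusted p under 0.05, and the most abundant were Insig1, Msmo1 and Mvd, with log2 fold changes of -0.14, 0.26 and -0.16.

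Other rises aside, the cell cycle gave no further call. Of 31 cell cycle genes Cdkn1c rose, 1 other gene was higher at an unadjusted p under 0.05 and the median was 0.038. Highest in FPKM were Pcna, Cdk4 and Cdkn1a, with log2 fold changes of 0.57, 0.65 and -0.18. Among 24 genes of the Bcl2 family and p53 targets limma called none, with 1 lower and 0 higher at an unadjusted p under 0.05, and the most abundant were Mcl1, Bcl2a1b and Bcl2a1d, with log2 fold changes of -0.13, 0.66 and 0.93. Mcl1, a survival protein with a short life, stood at 255, 254 and 255 FPKM on cpTi and 218, 233 and 247 on Ta0. Among 20 heat shock and unfolded protein genes none had an unadjusted p under 0.05, and the most abundant were Hspa8, Atf4 and Hsp90ab1, with log2 fold changes of 0.40, 0.18 and 0.012.

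Matrix and adhesion genes moved singly. Mmp8, a collagenase better known from neutrophils, stood at 86.0, 99.8 and 73.9 FPKM on cpTi and 20.3, 30.5 and 32.5 on Ta0 (log2 fold change -1.62, SE 0.23, adjusted p = 0.0288). Any part of neutrophils in that fall was not tested. Lox, which cross-links collagen, stood at 10.9, 9.43 and 13.4 FPKM on cpTi and 2.29, 2.43 and 2.68 on Ta0 (log2 fold change -1.81, SE 0.26, adjusted p = 0.0288). Tgfbi, a matrix protein induced by TGF-beta, stood at 30.5, 27.3 and 36.5 FPKM on cpTi and 11.0, 11.1 and 11.2 on Ta0 (log2 fold change -1.42, SE 0.17, adjusted p = 0.0191), with an SD of 0.107 FPKM over the 3 Ta0 libraries. Clmp, a cell adhesion protein of the immunoglobulin family on chromosome 9 (40685962 to 40785319, plus strand), stood at 16.5, 20.4 and 13.3 FPKM on cpTi and 4.63, 4.48 and 4.37 on Ta0 (log2 fold change -1.67, SE 0.17, adjusted p = 0.00622).

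Several proteins of the cell cortex also fell. Marcksl1, an actin-binding substrate of protein kinase C, stood at 42.3, 46.8 and 43.9 FPKM on cpTi and 20.7, 20.1 and 18.9 on Ta0 (log2 fold change -1.12, SE 0.16, adjusted p = 0.0288). Filip1l, a relative of a filamin-binding protein, stood at 6.40, 5.81 and 4.68 FPKM on cpTi and 1.09, 1.63 and 2.02 on Ta0 (log2 fold change -1.37, SE 0.19, adjusted p = 0.0274). Ralgds, which activates the small GTPase Ral, stood at 12.8, 12.8 and 12.1 FPKM on cpTi and 2.33, 4.44 and 3.67 on Ta0 (log2 fold change -1.63, SE 0.22, adjusted p = 0.0246), and in both of the last, Ta0 replicate 1 was the lowest. Fmnl2, a formin that builds actin filaments, fell from a mean of 6.92 ± 0.422 FPKM on cpTi to one of 3.28 ± 0.169 on Ta0 (log2 fold change -0.89, SE 0.14, adjusted p = 0.0498), the smallest fall of the 41. In the list of 30 integrins, actin and adhesion genes Matk and Lsp1 rose (6.67%, against 0.046% of all genes), none fell and the median was -0.092. The most abundant were Actb, Actg1 and Cdc42, with log2 fold changes of 0.13, 0.16 and 0.14. In that of 22 matrix genes, proteases and inhibitors Mmp8 fell (4.55%, against 0.378% of all genes) and the median was -0.25. The most abundant of these were Spp1, Mmp12 and Timp2, with log2 fold changes of 1.0, 0.55 and 0.34. Osteopontin (Spp1), a phosphoprotein of bone and of activated macrophages, had 5176, 5903 and 3802 FPKM on cpTi and 11989, 7239 and 10662 on Ta0, with every Ta0 library above every cpTi library but an adjusted p of 0.75. Clmp lost its call without cpTi replicate 1 or Ta0 replicate 2 or 3 (adjusted p up to 0.0659), and Mmp8, Lox, Tgfbi, Marcksl1, Filip1l, Ralgds and Fmnl2 lost theirs without any 1 cpTi or Ta0 library or Ta3 replicate 1, and Fmnl2 also without Ta3 replicate 2 (up to 0.274).

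Of the remaining falls, 2 had more than 3 FPKM on cpTi. Acpp, an acid phosphatase, stood at 4.40, 6.47 and 3.59 FPKM on cpTi and 0.932, 0.794 and 0.977 on Ta0 (log2 fold change -1.58, SE 0.20, adjusted p = 0.0191), and Cfb, the complement factor B gene, fell from a mean of 3.82 ± 0.286 FPKM on cpTi to one of 1.46 ± 0.264 on Ta0 (log2 fold change -0.97, SE 0.14, adjusted p = 0.0328). Ms4a14, of a family of membrane-spanning proteins, fell from a mean of 1.55 ± 0.165 FPKM on cpTi to one of 0.269 ± 0.128 on Ta0 (log2 fold change -1.01, SE 0.16, adjusted p = 0.0461), and Zmynd15, a zinc finger protein known from mouse testis, from a mean of 2.83 ± 0.437 FPKM on cpTi to one of 0.994 ± 0.181 on Ta0 (log2 fold change -0.94, SE 0.15, adjusted p = 0.0450). Gm22121 is the one called gene that is not protein coding, an entry of 54 bases annotated as a miRNA at 44469013 to 44469066 of chromosome 11, plus strand, inside Ublcp1 on the minus strand and outside its exons. It rests on 3, 1 and 4 reads on cpTi and 0 on Ta0, so no fold is given. Nos2, Slc39a4, Tarm1, Gm22121 and Ms4a14 reached the filter only through the cpTi libraries, as did 19 of all tested genes (0.175%), so such a gene had to be lower on the glasses. Acpp lost its call without cpTi replicate 1 or 2, any 1 Ta0 library or Ta3 replicate 1 (adjusted p up to 0.134), and Cfb, Ms4a14, Zmynd15 and Gm22121 kept theirs, of the 9 left-out libraries, only without Ta3 replicate 3 or, for Gm22121, also without cpTi replicate 2 (otherwise up to 0.267).

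No gene in the lists of alternative activation and of macrophage identity was called. Their log2 fold changes ran from -0.77 to 1.14 and from -0.91 to 1.18, so the lack of calls does not mean small differences. In the alternative activation list of 15 genes limma called none, with 3 lower and 0 higher at an unadjusted p under 0.05, and the most abundant were Arg1, Chil3 and Tgfb1, with log2 fold changes of -0.47, 0.18 and -0.17. Mrc1, the mannose receptor, stood at 9.58, 6.73 and 15.4 FPKM on cpTi and 9.44, 10.7 and 10.7 on Ta0 (log2 fold change 0.03, SE 0.33, adjusted p = 0.977), and Tgfb1 at 34.5, 30.5 and 58.5 FPKM on cpTi and 38.2, 41.1 and 27.6 on Ta0 (log2 fold change -0.17, SE 0.39, adjusted p = 0.878). Of the 23 identity genes none was called, with 2 lower and 0 higher at an unadjusted p under 0.05, and the most abundant were Lyz2, Lgals3 and Ctsd, with log2 fold changes of 0.53, 1.0 and 0.38. Adgre1, which encodes the F4/80 antigen, stood at 149, 163 and 161 FPKM on cpTi and 78.1, 97.6 and 91.5 on Ta0, without overlap (log2 fold change -0.82, SE 0.21, adjusted p = 0.294). Cd86, a costimulator of T cells, stood at 10.6, 12.9 and 7.87 FPKM on cpTi and 8.15, 5.5 and 7.22 on Ta0, where 1 library of each group reached into the other (log2 fold change -0.52, SE 0.30, adjusted p = 0.75). The 11 MHC class II and costimulation genes had a median of 0.31, 0 called by limma and 1 lower and 0 higher at an unadjusted p under 0.05, and the most abundant were Cd74, H2-Aa and Cd274, with log2 fold changes of 0.47, 0.71 and -0.88. That median was -0.27 with a common FPKM total and -0.038 without Ta0 replicate 1. Of 27 lysosome and phagocytosis genes none had an unadjusted p under 0.05, and the most abundant were Ctss, Ctsd and Ctsz, with log2 fold changes of 0.48, 0.38 and 0.19.

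The lists of secreted osteogenic and angiogenic factors and of osteoclast genes gave no call. The called falls Il1b, Tnf, Inhba and Ptges were not among their members. Among 14 secreted osteogenic and angiogenic factors none had an unadjusted p under 0.05, and the most abundant were Spp1, Igf1 and Tgfb1, with log2 fold changes of 1.0, 0.48 and -0.17. Bmp2, a bone-inducing factor, stood at 2.02, 1.48 and 3.06 FPKM on cpTi and 1.08, 1.21 and 1.41 on Ta0. Osm, the bone-active cytokine oncostatin M, stood at 3.58, 4.43 and 4.08 FPKM on cpTi and 1.84, 3.54 and 3.10 on Ta0. Vegfa, which drives vessel growth, stood at 22.8, 13.7 and 25.2 FPKM on cpTi and 11.4, 19.2 and 15.6 on Ta0. The groups of Bmp2 and Osm did not overlap, those of Vegfa did, and none of the 3 passed (adjusted p of 0.75 or more). Of 12 osteoclast genes limma called none, with 2 lower and 1 higher at an unadjusted p under 0.05, and the most abundant were Ctsk, Atp6v0d2 and Acp5, with log2 fold changes of 0.017, 0.90 and -0.68. Acp5, the tartrate-resistant acid phosphatase of osteoclasts, stood at 94.5, 126 and 72.9 FPKM on cpTi and 64.6, 52.7 and 60.5 on Ta0, without overlap (log2 fold change -0.68, SE 0.27, adjusted p = 0.75).

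Genes of protein synthesis and respiration lay higher on Ta0 as groups, beside the ribosomal share of reads given above, without any being called. The 25 ribosomal protein genes had a median of 1.33, all 25 above 0, but in 24 of them the groups overlapped, and none had an unadjusted p under 0.05. Leading in level were Rpl19, Rps14 and Rpl32, with log2 fold changes of 1.6, 1.83 and 1.52. The 25 oxidative phosphorylation genes had a median of 0.95, and the most abundant were Cox4i1, Ndufa2 and Ndufa1, with log2 fold changes of 1.52, 1.69 and 1.5, whereas the 12 genes of the mitochondrial genome had a median of -0.17, led by mt-Co1, mt-Nd1 and mt-Cytb, with log2 fold changes of -0.014, -0.079 and -0.16. Without Ta0 replicate 1 the first 2 medians were 0.78 and 0.42, and in the length-adjusted fit 0.17 and 0.0405. Of 24 glycolysis and hypoxia genes limma called none, with 2 lower and 0 higher at an unadjusted p under 0.05, and the most abundant were Ldha, Aldoa and Pgam1, with log2 fold changes of 0.40, 0.33 and 0.22. Of 15 immediate early transcription factors none had an unadjusted p under 0.05, the most abundant being Atf3, Klf6 and Junb, with log2 fold changes of 0.46, -0.33 and -0.30. The 10 most abundant protein-coding genes of all, Fth1, Lyz2, Ctss, B2m, Ftl1, mt-Co1, Spp1, Lgals3, Rplp1 and Wfdc17, had adjusted p of 0.75 or more.

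**Figure D4:**
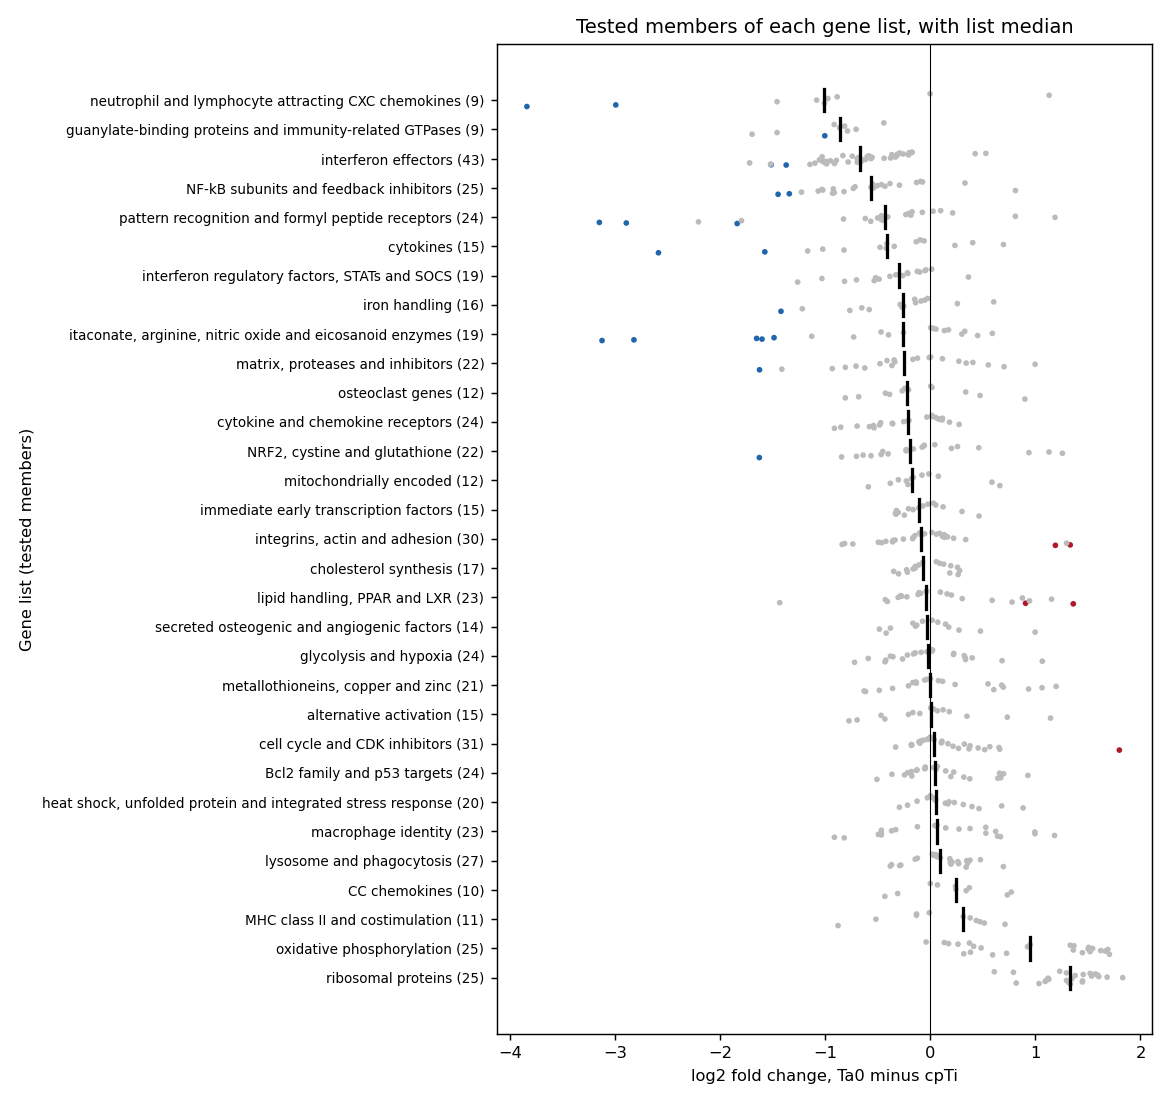
Log2 fold change of Ta0 minus cpTi (x axis) for each tested member of the 31 gene lists (rows, number of tested members in brackets), with called falls in blue, called rises in red, other genes in grey and a black bar at the list median. Medians run from -1.01 for the CXC chemokines to 1.33 for the ribosomal proteins, whose 25 points hold no called gene.

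The SD on cpTi was under 10% of the mean in 16 of the 41 falls (39.0%) and in 18.2% of all tested genes, and a small SD itself helps a gene to pass. The order of the cpTi libraries, replicate 2 highest and replicate 3 lowest, was near the background, in 18 of 41 (43.9%) against 37.6% of all. Chromosome 17 held 6 of the 46 called genes (13%: Tnf, Nfkbie, Cfb, Fpr1, Fpr2 and H2-M2) and 5.21% of all tested genes. These shares carry no test.

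Values on the tantalum glass are given beside those of Ta0 for orientation, since both glasses were set against the same cpTi libraries. Ta3 against cpTi gave 52 calls (0.479%). All 46 genes called on Ta0 had the same sign on Ta3, and 35 of them were also called there. The shared cpTi libraries favour such a match, so it is no independent support. Tlr2 had a mean of 8.37 ± 0.863 FPKM on Ta0 and 11.2 ± 3.33 on Ta3, with log2 fold changes from cpTi of -1.84 and -1.49. Pparg had 23.4 ± 0.268 and 19.0 ± 0.446 FPKM, with log2 fold changes of 0.91 and 0.62, and the second did not pass (adjusted p = 0.158). Fpr2 had 16.6 ± 7.74 and 5.58 ± 2.24 FPKM, and Mmp8 27.7 ± 6.56 and 19.2 ± 1.5 (SD, n = 3). The smallest adjusted p of any gene between the 2 glasses was 0.846.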

How the data were processed

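RNA of 9 libraries, 3 per material, was analysed from a single table that the authors deposited, in FPKM for 54532 genes. Per the submitters' processing notes, the tools were HISAT2 2.0.5 and featureCounts 1.5.0-p3, beside fastp, CASAVA 1.8 and DESeq2 1.20.0, and the build was GRCm38 (mm10). The notes give no role for each tool and no strand setting, so reads of a gene and of an overlapping antisense gene cannot be told apart. FPKM times gene length gave whole reads for 100% of values within 0.05 reads. The scale dividing each library lay between 9078170 and 21911078 reads.

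The filter asked for 1 FPKM or more in 3 or more libraries. Values as log2(FPKM + 1) were fitted in limma 3.58.1 (R 4.3.3) as 3 group means with a mean-variance trend, with two-sided tests and Benjamini-Hochberg adjustment over all 10858 genes. The fit was tested on simulated data. The members and the lists were chosen with earlier results of these data known, so lists are described by counts and medians and carry no test. Named were all called genes, the 3 most abundant members of each list, the 5 genes on either side of the threshold, the 10 most abundant protein-coding genes and a fixed set given whatever its p. Any other is said to be chosen after its values were seen. Alternatives were other pseudocounts (0.1 and 0.5), filters (none and 5 FPKM), the 6 libraries alone, a replicate block, a common FPKM total, a length slope covariate, voom on rebuilt reads, no trend and left-out libraries. Promoters came from RefSeq (GRCm38.p6).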

Additional observations from a re-analysis of the deposited data

How the results depend on the processing

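Against 41 falls and 5 rises, the numbers lower and higher were 24 and 3 with a pseudocount of 0.1, 24 and 4 with no filter, 25 and 4 with voom on rebuilt reads, 11 and 0 with a common FPKM total and 190 and 56 in the length-adjusted fit. Without both libraries with the fewest genes above 0 they were 18 and 2. Leaving out 1 library at a time gave 7 to 72 falls and 0 to 12 rises, the highest without Ta3 replicate 3. A pseudocount of 0.5, a filter of 5 FPKM, the 6 libraries alone and no trend gave 29 to 32 falls and 4 to 6 rises.

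Whether the same replicate numbers pair the samples is not said in the labels. The deviations of same-numbered cpTi and Ta0 libraries correlated at 0.197, -0.736 and 0.125 (descriptive, over the tested genes). Unlike-numbered pairs ran from -0.666 (cpTi replicate 3 with Ta0 replicate 1) to 0.732 (cpTi replicate 3 with Ta0 replicate 2). Such correlations cannot show whether samples were paired, since differences in library composition also enter them. A replicate block gave 4 falls and 0 rises, and the cause was not tested. Some uncalled genes turned sign and passed in the length-adjusted fit, namely Clec4d (log2 fold change -0.98), Prdx1 (-0.93) and Ccl3 (-0.65). Acod1, Ptges, Cxcl3 and Cxcl2 passed in every setting, and no called gene changed sign in any. As no called gene had overlapping groups, a left-out library or another pseudocount could not turn a sign. With 3 libraries per group, and levels on Ta0 that rest on under 10 reads for Nos2 and Gm22121, folds of low genes are uncertain.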
